A study of Mus musculus with 7 samples.

Results

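Homologous recombination and DNA damage genes were examined as a set of 33 named genes, each matched by its symbol in the 7 count matrices, which list 31053 genes. All 33 symbols were found, and all 33 genes had at least 1 UMI in some library. The mice and cells behind the libraries were as follows. BRCA1-null tumors arose spontaneously in K14-Cre mice with floxed Trp53 F/F and Brca1 F/F alleles, in which the keratin 14 promoter, active in basal epithelium, drives Cre. Neu tumors arose spontaneously in MMTV-Neu mice with FIP200 floxed alleles without Cre (by the labels for replicate B and the study's methods for replicate A), and PyMT tumors were transplants of FF99WT cells, a line derived from an MMTV-PyMT tumor that carried FIP200 floxed alleles without Cre, so that both PyMT tumors came from the same line. These 3 tumor types were of the FVB/NJ strain and each had 2 libraries, A and B, from separate tumors. The 4T1 library, of BALB/C, came from transplanted 4T1 cells, a mouse mammary tumor line, here marked with GFP. The tumors were untreated and taken at about 1000 mm3, and CD24+ cells without CD31, CD45 or Ter119 were sorted before the 10x 3' libraries were made.

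Homologous recombination repairs broken DNA from an intact sister copy, so it operates mainly while DNA is being replicated and after. MRE11, RAD50 and NBN bind the break, CtIP (Rbbp8), EXO1, DNA2 and BLM cut back its ends, RPA coats the exposed strand, BRCA1, BARD1, PALB2 and BRCA2 act on that strand, and RAD51C, RAD51D, XRCC2, XRCC3, RAD51AP1 and RAD54L take part in the exchange of strands. Loss of BRCA1 impairs this pathway and leaves cells dependent on other routes such as those of PARP1 and POLQ, which is why its genes are of interest in tumors that lack BRCA1.

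Cells with at least 1000 UMIs, 500 genes and under 20% mitochondrial UMIs were kept, 12168 of 13745 barcodes, with 245 cells in BRCA1-null A and 1751 to 2308 in the other 6 libraries. The kept cells held 5578911 UMIs in BRCA1-null A and 18119851 to 37693300 in the others. A total of 118 barcode sequences occurred in more than 1 library, and 213 kept cells carried them. Epithelial markers were present in all libraries with none of the 8 genes at 0, at a summed 1222 and 6008 CPM in BRCA1-null A and B against 5369 to 22896 in the other libraries. The 6 basal markers summed to 378 and 2805 CPM in BRCA1-null, 13.4 to 57.5 in PyMT and Neu, and 583 in 4T1. The 6 fibroblast markers summed to 308 and 1697 CPM in BRCA1-null and 2.01 to 28.6 elsewhere, with none at 0 in any library. Immune, endothelial and pericyte markers were lower in sum, at 27.4 and 37.9, 28.9 and 5.77, and 15.8 and 145 CPM in BRCA1-null A and B, and reached at most 11.6, 2.01 and 12.8 CPM elsewhere. CPM here are the UMIs of a gene per 1000000 UMIs of the library, scaled by its TMM factor. The factors were taken separately for all cells and for each cell class described below. Levels of different classes are therefore not on exactly the same scale, and counts of libraries by direction between classes depend on this.

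Cells with UMIs of at least 3 of 8 mitotic genes (Ccna2, Ccnb1, Cdk1, Cenpf, Nusap1, Top2a, Tpx2 and Ube2c) are called cycling cells, and cells with none of the 8 are called marker-free. Cycling cells were 92 of 245 in BRCA1-null A, or 37.6% (95% exact binomial interval 31.5 to 43.9%), and 13.2% in BRCA1-null B. They were 1.34% and 6.68% of PyMT, 2.12% and 5.16% of Neu and 20.0% of 4T1 cells. Both BRCA1-null libraries thus had a larger share of cycling cells than any PyMT or Neu library, while PyMT and Neu overlapped. Each comparison of all cells includes BRCA1-null, so this share differs between the sides compared. Cycling cells were also deeper, with median UMIs of 15224 to 33216 against 8556 to 18851 in the remaining cells, and the share depends on depth. After every cell was thinned to 3000 UMIs, leaving out 23 to 233 shallower cells per library, the shares were 20.7% and 4.26% of BRCA1-null cells, 0.487% and 2.01% of PyMT cells, 1.25% and 2.26% of Neu cells and 8.25% of the 4T1 cells, lower in every library and still higher in both BRCA1-null libraries than in PyMT and Neu. In summed libraries, fewer cells that express a gene and less RNA per cell cannot be told apart. These intervals and the floors below cover counting error only.

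**Figure D1:**
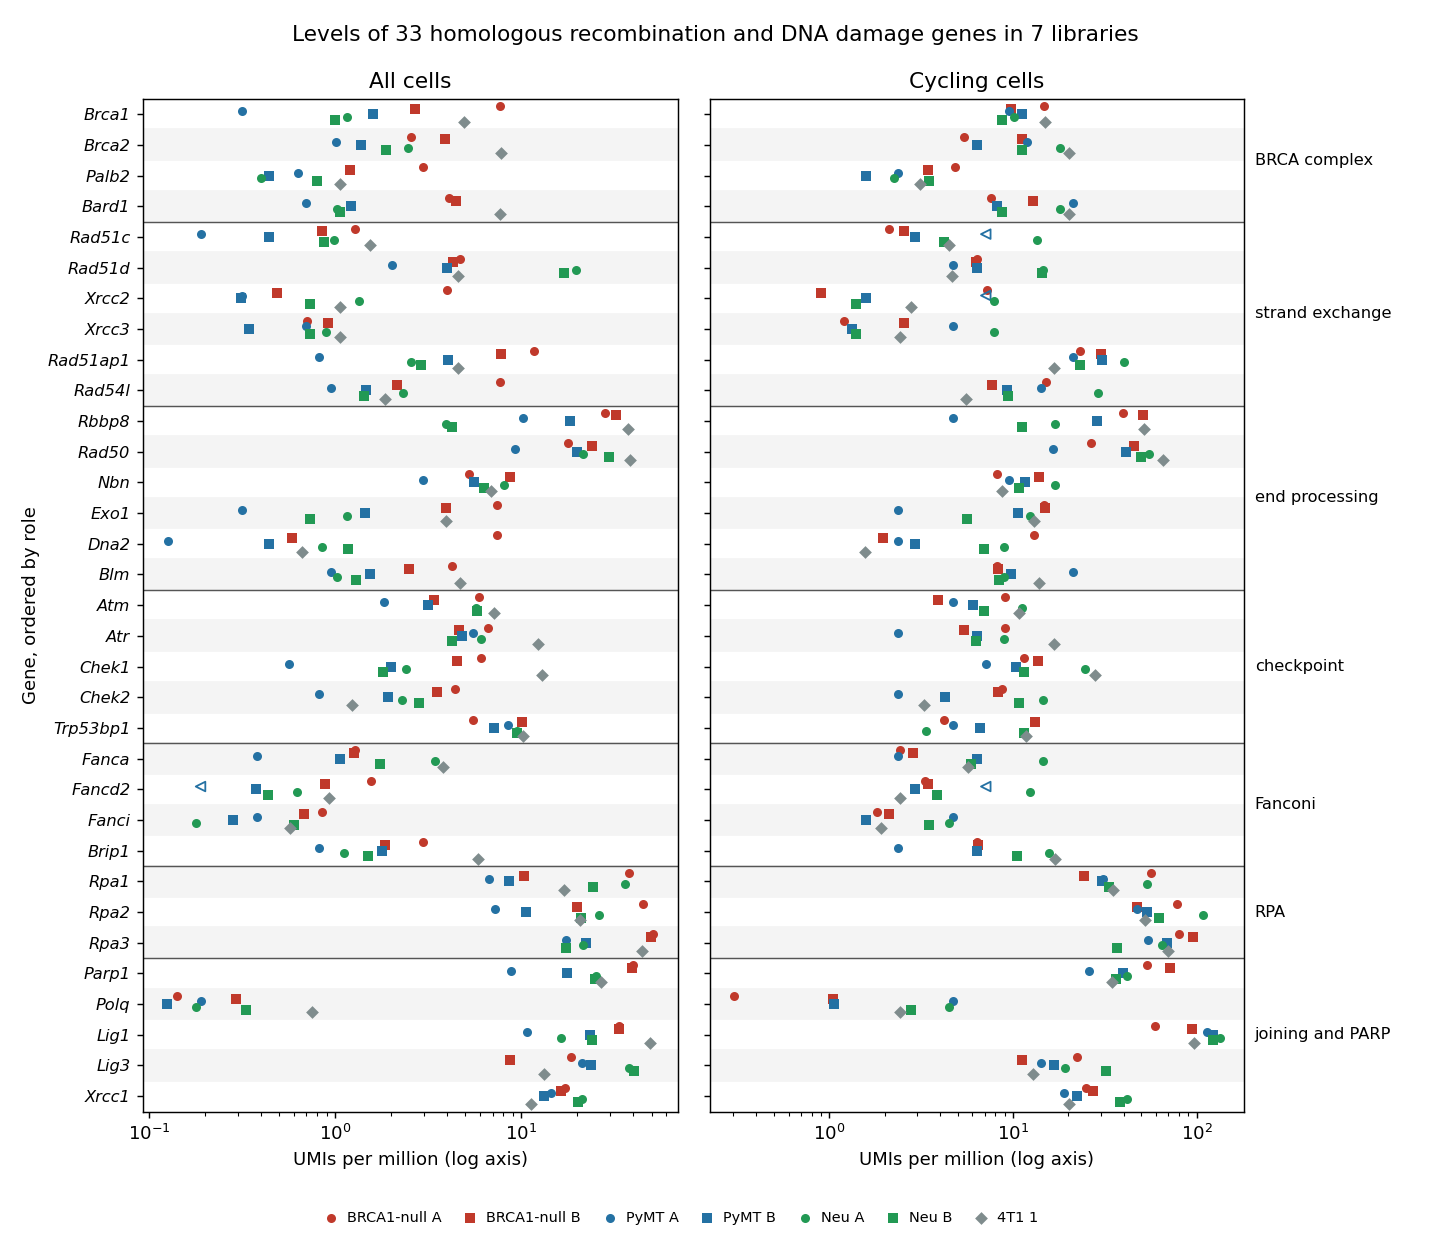
Level of each of the 33 genes in CPM (log axis) in all cells (left) and cycling cells (right), 1 point per library, with genes grouped by role. Open triangles mark 0 UMIs, drawn at the level of 3 UMIs. BRCA1-null A and B had Brca1 at 7.64 and 2.69 CPM in all cells, above the PyMT and Neu points, whereas in cycling cells the points of all tumor types lay between 8.73 and 14.9 CPM.

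Promoters are shown for 5 genes: Brca1, Rad51ap1 and Rad54l, which were far higher in cycling cells and hold the letters CCAAT, Bard1, which was also far higher and does not, and Lig3, which was not higher and does not. Each is the 150 bases before the gene's start, 5′ to 3′ on the gene's strand, from RefSeq on GRCm38.p6, with capitals for the letters CCAAT or their reverse complement ATTGG.
Brca1, chr11:101551956-101552105, minus strand: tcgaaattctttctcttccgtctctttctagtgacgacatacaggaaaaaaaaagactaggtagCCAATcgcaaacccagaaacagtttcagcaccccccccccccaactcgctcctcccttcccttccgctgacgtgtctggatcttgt
Rad51ap1, chr6:126939588-126939737, minus strand: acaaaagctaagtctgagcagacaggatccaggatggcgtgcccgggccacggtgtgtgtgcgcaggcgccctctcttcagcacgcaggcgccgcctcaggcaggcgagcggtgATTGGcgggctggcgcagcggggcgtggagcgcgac
Rad54l, chr4:116123691-116123840, minus strand: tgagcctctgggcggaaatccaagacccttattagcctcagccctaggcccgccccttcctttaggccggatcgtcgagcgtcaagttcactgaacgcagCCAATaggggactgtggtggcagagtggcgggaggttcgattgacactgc
Bard1, chr1:71102973-71103122, minus strand: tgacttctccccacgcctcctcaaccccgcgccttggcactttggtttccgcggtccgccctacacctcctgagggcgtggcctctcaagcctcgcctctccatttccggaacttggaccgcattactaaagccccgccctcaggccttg
Lig3, chr11:82780959-82781108, plus strand: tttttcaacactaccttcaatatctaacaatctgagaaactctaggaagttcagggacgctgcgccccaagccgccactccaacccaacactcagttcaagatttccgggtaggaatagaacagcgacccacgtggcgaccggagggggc

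Of the 33 genes 26 had a promoter in the table. In the 250 bases before the start, on either strand, CCAAT was present in 13 of the 26 (50%) and in 34.5% of all 27025 promoters. The E2F letters TTTGGCGC, TTTCCCGC, TTTGCCGC or TTTCGCGC were present in 3 (Brca2, Bard1 and Chek2), 11.5% against 1.91% of all promoters. The CHR letters TTTGAA were present in 2 (Bard1 and Polq), 7.69% against 16.3%. CCAAT was found in 7 of 13 matched genes whose level in cycling cells was over 2 log2 units above that in other cells and in 5 of 9 with a smaller difference. The E2F letters were in 3 of the 13 and 0 of the 9, and CHR in 1 and 0. Of the genes over 2 log2 units, Palb2, Dna2, Chek1 and Lig1 held none of the letters in the 250 bases. Bard1, Blm and Brca2 held some there but none in the 150 bases before the start. The 150 bases of Chek2, Brip1 and Rpa2 were not searched separately. These are matches of letters and no binding was measured.

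Most of the genes were higher in cycling cells than in the other cells of the same library. Of 27 genes tested, 23 were higher and 1, Lig3, was lower, whereas 39.7% of all 10661 genes tested were called, 10.3% as higher and 29.4% as lower (edgeR quasi-likelihood test with library as a block, adjusted p under 0.05). The median log2 difference was 2.03 over the 27 genes and −0.23 over all genes tested. Rad51c, Xrcc2, Xrcc3, Fancd2, Fanci and Polq had too few UMIs to be tested. By direction alone, with levels scaled within each class, 22 of the 27 were higher in cycling cells of all 7 libraries. This held for 15.1% of all genes tested and for 25 of all 33. The filter on low counts bears on these counts, since 13 of the 27 reached its cutoff of 1.57 CPM in other cells of at most 3 libraries and so entered through the cycling cells. These were Brca1, Brca2, Palb2, Bard1, Rad51ap1, Rad54l, Exo1, Dna2, Blm, Chek1, Chek2, Fanca and Brip1. The filter bears in the same way on their differences and p-values below, which are given as values and carry no weight as tests. Without the filter all 33 genes were tested and 28 were higher. Of the 43886 UMIs of the 33 genes, 15264 came from cycling cells, 34.8% against 14.5% for all genes, both pooled over libraries that differ in their share of cycling cells. The counts of higher genes stayed at 22 to 25 when each library was left out in turn and at 20 to 28 in 9 other settings.

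All 4 genes of the BRCA complex were higher in cycling cells. Brca1 itself was at 8.73 to 14.9 CPM in cycling cells (median 10.1) and at 0.0640 to 1.67 CPM in other cells (median 0.778), a 14.4-fold difference (log2 3.85, standard error 0.31, adjusted p = 2.55e-08). Bard1, the partner with which BRCA1 forms a ubiquitin ligase, was at 7.55 to 21.3 CPM (median 12.8) against 0.128 to 3.39 (median 0.321), a log2 difference of 3.54. Brca2, which acts on the resected strand, was at 5.44 to 20.3 CPM (median 11.2) against 0 to 3.63 (median 0.874), a log2 difference of 2.81. The ranges of cycling and other cells did not overlap for any of these 3. Palb2, which links BRCA1 to BRCA2, differed by 2.26 on the log2 scale. Cycling cells, 1018 of the 12168, supplied 77.8% of Brca1, 69.4% of Bard1, 58.8% of Brca2 and 54.7% of Palb2 UMIs. They supplied 14.5% of the UMIs of all genes. By library the shares were 34.6 to 90.7% for Brca1, 62.0 to 86.2% for Bard1, 29.1 to 100% for Brca2 and 10 to 76.2% for Palb2.

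Among the genes of strand exchange, Rad51ap1, whose protein stimulates strand pairing, had the largest difference of the set. It was at 16.6 to 40.4 CPM in cycling cells (median 23.3) and at 0.256 to 2.01 in other cells (median 0.764), a 26.8-fold difference (log2 4.74, standard error 0.25, adjusted p = 1.2e-10), and 84.1% of its UMIs came from cycling cells. Rad54l, a DNA translocase, was at 5.54 to 29.2 CPM (median 9.43) against 0.419 to 1.34 (median 0.605), a log2 difference of 3.74. Rad51d did not follow them. Its log2 difference was −0.00 (95% interval −0.46 to 0.45), it was higher in cycling cells of 5 of 7 libraries, and its share of UMIs from cycling cells was 63.6% and 31.8% in BRCA1-null tumors, 6.25% and 18.8% in PyMT tumors, 2.93% and 8.09% in Neu and 26.2% in 4T1. For all genes that share was 56.9% and 24.4%, 2.35% and 10.7%, 3.55% and 8.93%, and 27.5%. Level and share went apart in 4T1, where the level counted as higher and the share was below that of all genes.

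The 6 genes that process broken ends were all higher in cycling cells but by unequal amounts. The nuclease gene Exo1 was at 2.37 to 14.9 CPM in cycling cells (median 12.3) and 0.210 to 1.00 in other cells (median 0.688), a log2 difference of 4.02. Blm, a helicase, was at 8.16 to 21.3 CPM (median 8.98) against 0.384 to 1.57 (median 0.688), a log2 difference of 3.50. Dna2, another nuclease, was at 1.56 to 13.0 CPM (median 2.91) against 0.0640 to 3.01 (median 0.363), a log2 difference of 3.03. The ranges overlapped for Dna2 and not for the other 2. Rad50 (0.90), Nbn (0.74) and Rbbp8 (0.69, adjusted p = 0.00996) had log2 differences under 1, and Rbbp8 was higher in 6 of 7 libraries. Without Neu B, Rbbp8 did not pass (0.58, adjusted p = 0.0648).

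Of the damage signalling genes, the kinase gene Chek1 was at 7.10 to 28.1 CPM in cycling cells (median 11.5) and 0.384 to 7.99 in other cells (median 1.47), a log2 difference of 2.80. The ranges overlapped because 4T1 had 7.99 CPM in other cells. Chek2 differed by 2.03 and Atm by 0.51 (adjusted p = 0.0456), and Atm lost its call in 8 of 16 other settings, among them without BRCA1-null A (0.0639), PyMT A (0.0504), PyMT B (0.112), Neu A (0.0873) or 4T1 (0.0948). Atr (0.22) and Trp53bp1 (−0.29), whose product 53BP1 protects ends from resection, did not pass the test. In the Fanconi group, which repairs crosslinks, Brip1 was at 2.37 to 17.0 CPM against 0 to 2.06 (medians 6.47 and 0.605), a log2 difference of 3.19, and Fanca differed by 1.88. Fancd2 and Fanci were not tested. Their shares of UMIs from cycling cells were 82.7% and 68.8%.

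All 3 RPA subunits were higher in cycling cells. Rpa2 was at 47.4 to 108 CPM (median 53.7) against 4.68 to 22.5 (median 12.9), a log2 difference of 2.10, with 1.20 for Rpa3 and 1.18 for Rpa1. The 2 DNA ligase genes went apart. Lig1, the ligase of replication, was at 59.5 to 134 CPM in cycling cells (median 114) and 7.87 to 33.4 in other cells (median 13.0), a log2 difference of 2.63. Lig3, which works with XRCC1 on nicks and in mitochondria, had a log2 difference of −0.48 (95% interval −0.83 to −0.13, adjusted p = 0.03). By level it was higher in cycling cells of 2 of 7 libraries. In BRCA1-null A, counted among them, its share of UMIs from cycling cells was 56.5% against 56.9% for all genes. Its call was lost in 7 of 16 other settings, among them without PyMT A, PyMT B, Neu A or Neu B (adjusted p up to 0.103). Xrcc1 (0.74) and Parp1 (0.67) were modestly higher, and 83.3% of the 48 UMIs of Polq came from cycling cells.

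**Figure D2:**
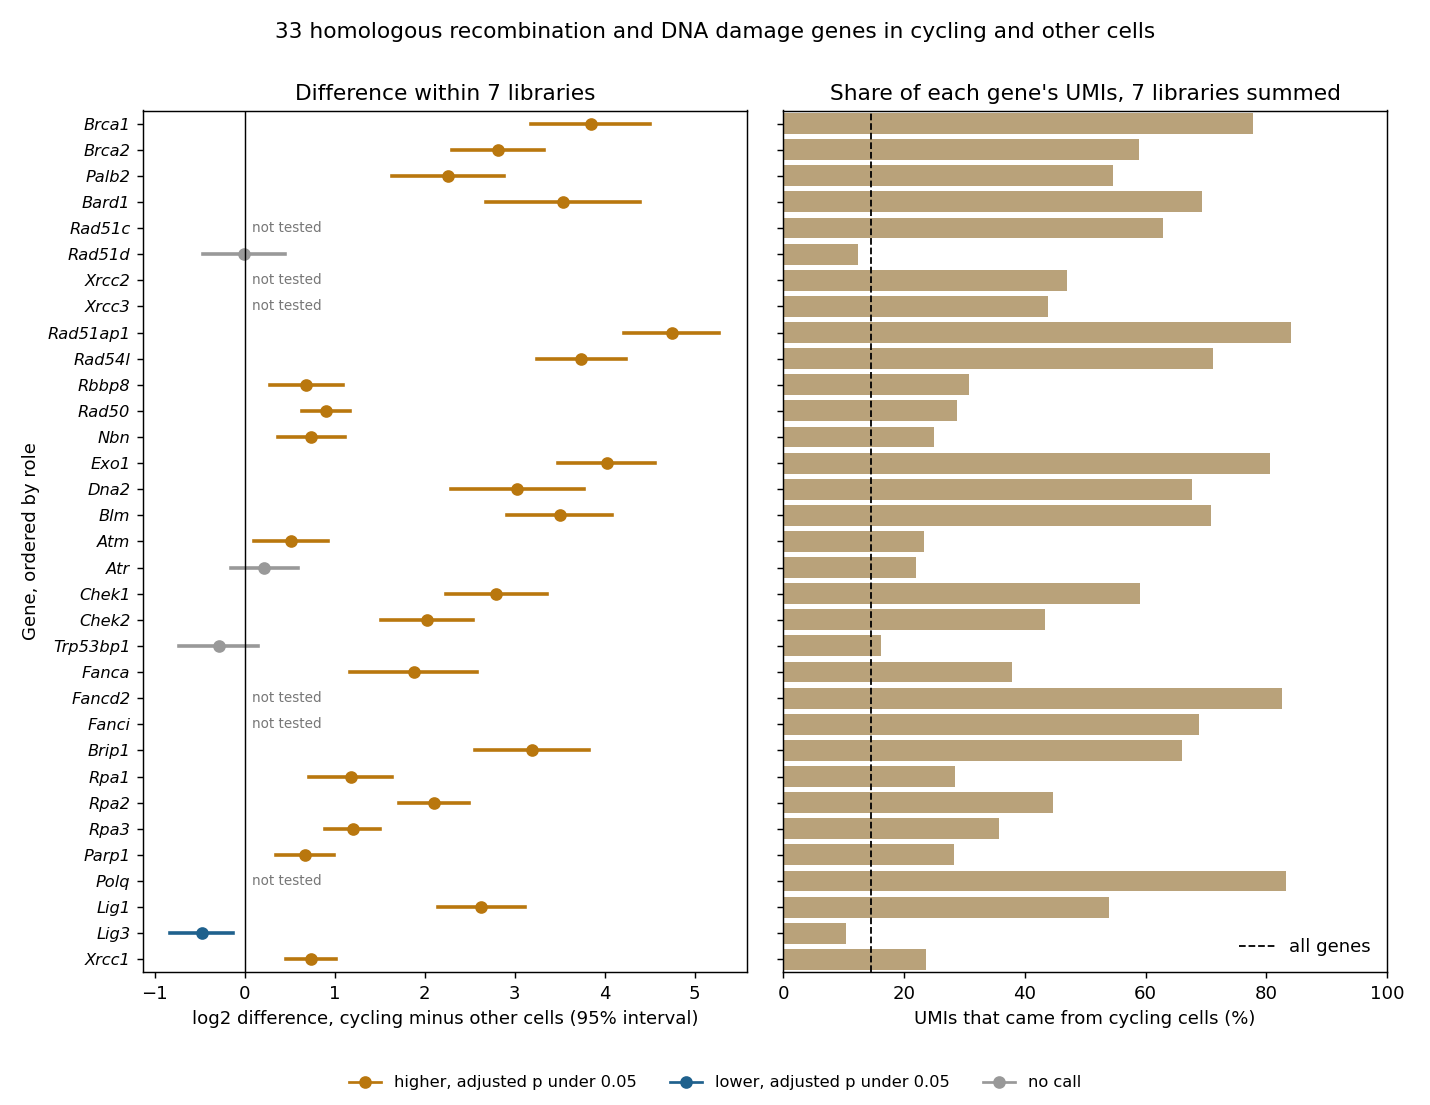
Left, log2 difference between cycling and other cells within 7 libraries for the tested genes, with 95% intervals. Right, percent of each gene's UMIs that came from cycling cells, with the 14.5% of all genes as a dashed line. Rad51ap1 stood at 4.74 and 84.1%, and Lig3 at −0.48 and 10.4%.

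Other genes of the same pathways were counted in the same test. Of 24 further homologous recombination genes tested 12 were higher and 2 lower, with the nuclease subunit Eme1 (4.15) among the higher. For further Fanconi genes the count was 6 higher and 0 lower of 11 (Ube2t 2.93, Usp1 1.65), and for further checkpoint genes 13 and 0 of 18 (Clspn at 4.47). Of the end joining genes 2 were higher and 1, Paxx (−0.70), was lower of 12. Excision and mismatch repair genes gave 11 higher and 2 lower of 27, with Neil3 at 5.31 and Fen1 at 2.30. All 30 replication genes were higher, with a median of 2.40, and all 8 epithelial markers were lower. The 8 mitotic markers chose the cells and are no result, and the 8 replication markers, which belong to the replication list, were all higher.

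Cells in replication were looked for apart from the cycling cells. Cells with at least 3 of 8 replication markers (Mcm2, Mcm3, Mcm5, Mcm6, Gins2, Cdc45, Cdc6 and Uhrf1) and under 3 mitotic markers, which belong to the other cells above, were set against cells with the reverse, and cells with both were left out. Cells with both were most of the cycling cells, at 65 of 92 and 204 of 275 in BRCA1-null and 15 of 26 and 97 of 123 in PyMT. They were 31 of 49 and 55 of 103 in Neu and 212 of 350 in 4T1. The test does not cover these cells. Lig1 alone of 10 genes tested was higher in replication-marker cells, against 2.44% of all genes called, 0.907% as higher and 1.53% as lower. It was at 35.2, 64.5, 80.3, 56.2, 81.6, 111 and 80.5 CPM in replication-marker cells of BRCA1-null A and B, PyMT A and B, Neu A and B and 4T1, and at 18.3, 43.0, 67.1, 55.0, 3.85, 28.3 and 60.3 CPM in mitotic-marker cells. The 3.85 CPM of Neu A rests on very few UMIs of Lig1, from 18 cells with 211818 UMIs of all genes. Lig1 was higher in each library, by 0.99 on the log2 scale (95% interval 0.49 to 1.48, adjusted p = 0.0261). DESeq2 gave an adjusted p of 0.056, and without Neu B it was 0.163.

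BRCA1-null tumors were then compared with the mean of PyMT and Neu tumors. The 3 comparisons of tumor types that follow share their libraries, have 3 residual degrees of freedom, and their p-values rest on the spread between the 2 libraries of each type. That spread also holds the sequencing batch, and for PyMT it is between transplants of the same line. PyMT was the only transplanted type of the 3, so its tumor type and transplantation cannot be told apart. In all cells, 7 of 32 genes tested were higher in BRCA1-null and 0 were lower (edgeR), against 27.2% of all 13950 genes tested, 16.9% as higher and 10.3% as lower. At an unadjusted p under 0.05 there were 16 genes in either direction, and DESeq2 called 12 higher and 1 lower. The share of the 32 genes that was higher was thus near that of all genes tested, although their median log2 difference was 1.06 against 0.04. Without regard to a test, 16 of the 32 genes were higher in both BRCA1-null libraries than in all 4 others and 1 was lower, against 21.2% higher and 18.4% lower of all genes tested. The 33 genes summed to 395 and 309 CPM in BRCA1-null, 137 and 205 in PyMT tumors, 285 and 272 in Neu and 366 in 4T1.

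Brca1, the gene floxed in this model, was at 7.64 and 2.69 CPM in BRCA1-null A and B (54 and 83 UMIs), 0.315 and 1.60 in PyMT tumors (5 and 51 UMIs), 1.16 and 0.999 in Neu (26 and 30 UMIs) and 4.90 in 4T1. Both BRCA1-null libraries lay above all PyMT and Neu libraries, a 4.87-fold difference (log2 2.28, 95% interval 0.67 to 3.90, adjusted p = 0.0469). Reads of a 3' library do not show whether internal exons are deleted, so this level does not check the genotype. The call was lost in 6 of 15 other settings. Without BRCA1-null A the log2 difference was 1.37 (adjusted p = 0.212), without PyMT A 1.95 (0.093), without Neu A 2.35 (0.122), without Neu B 2.24 (0.134), under the cell filter of the study, which also removes shared barcodes, 2.08 (0.057) and with the replicate block 2.28 (0.0783). Bard1 was at 4.10 and 4.44 CPM in BRCA1-null, 0.692 and 1.22 in PyMT tumors, 1.02 and 1.07 in Neu and 7.63 in 4T1, a 4.23-fold difference without overlap (log2 2.08, 95% interval 1.09 to 3.07, adjusted p = 0.0125). Its call was lost without PyMT A (adjusted p = 0.0567), Neu A (0.0598) or Neu B (0.0603).

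Brca2 was at 2.55 and 3.89 CPM in BRCA1-null, 1.01 and 1.38 in PyMT tumors, 2.45 and 1.87 in Neu and 7.81 in 4T1, and did not pass the test. Palb2 was at 2.97 and 1.20 CPM, 0.629 and 0.438, 0.400 and 0.799, and 1.06, with a log2 difference of 1.82 that did not pass either (adjusted p = 0.0632). In both genes the BRCA1-null libraries were above those of PyMT and Neu, although for Brca2 the margin over Neu A was small.

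Rad51ap1 was at 11.7 and 7.79 CPM in BRCA1-null, 0.818 and 4.04 in PyMT tumors, 2.54 and 2.90 in Neu and 4.55 in 4T1. The BRCA1-null libraries were above the PyMT and Neu libraries (log2 1.90, 95% interval 0.54 to 3.26, adjusted p = 0.0485), a call lost in 7 of 15 settings. These included leaving out any library other than PyMT B (adjusted p up to 0.132), the filter of the study (0.0535) and the replicate block (0.0541). Exo1 was at 7.36 and 3.93 CPM in BRCA1-null, 0.315 and 1.44 in PyMT tumors, 1.16 and 0.733 in Neu and 3.93 in 4T1, a 5.98-fold difference (adjusted p = 0.0223). Its groups did not overlap, and its call was lost without BRCA1-null A (0.0693), PyMT A (0.0529), Neu A (0.0685) or Neu B (0.0877).

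Rbbp8, which encodes the resection factor CtIP, was at 28.2 and 32.2 CPM in BRCA1-null, 10.2 and 18.3 in PyMT tumors, 3.92 and 4.23 in Neu and 37.6 in 4T1. The 3 tumor types did not overlap, and BRCA1-null was 3.96-fold above the mean of the others (log2 1.98, 95% interval 1.27 to 2.70, adjusted p = 0.00569). Rpa3, the smallest RPA subunit, was at 51.1 and 49.5 CPM in BRCA1-null, 17.3 and 22.4 in PyMT tumors, 21.5 and 17.4 in Neu and 44.6 in 4T1, a 2.56-fold difference without overlap (adjusted p = 0.00793). These 2 genes kept their calls in all 15 other settings, with adjusted p up to 0.0337 and 0.0472. Parp1 was at 39.6 and 39.1 CPM, 8.75 and 17.5, 25.1 and 24.8, and 26.8 in the same order, a 2.17-fold difference (adjusted p = 0.0363). Its call was lost without BRCA1-null A (0.0659), BRCA1-null B (0.0727), PyMT A (0.0793), Neu A (0.109) or Neu B (0.113).

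Leaving out libraries in turn moved the number of genes higher in BRCA1-null widely, to 3 without BRCA1-null A, 11 without BRCA1-null B, 2 without PyMT A, 8 without PyMT B, 2 without Neu A and 2 without Neu B. Cells with a UMI of Epcam, Krt8 or Krt18 alone gave 7 higher and 0 lower, as did all cells. Replication genes were higher in 17 of 30, with a median log2 difference of 1.46, and mitotic markers in 6 of 8 and replication markers in 5 of 8. Of the further repair genes, 4 of 28 for homologous recombination were higher, led by Mre11a (2.41), the nuclease partner of RAD50. The counts were 3 higher and 1 lower of 14 Fanconi genes, 4 higher of 18 checkpoint genes with Topbp1 (1.50) and H2afx (1.59), 2 higher and 1 lower of 12 for end joining, and 3 higher of 27 for excision and mismatch repair, led by Ung (2.33). Markers of other cell types moved in the same comparison, with 5 of 6 basal, all 6 fibroblast, 3 of 5 pericyte, 4 of 4 endothelial and 4 of 4 immune genes tested higher and 1 higher and 2 lower of 8 epithelial genes. The endothelial markers Cdh5, Emcn and Kdr and the pericyte markers Rgs5, Pdgfrb and Cspg4 were at 0 to 0.333 CPM in PyMT and Neu. In BRCA1-null they were at 0.714 to 74.3 CPM. They passed the filter on low counts through BRCA1-null, so calls of these genes carry no weight. The part of these cell types in the results was not tested. The epithelial restriction above does not test it, since it kept 234 of 245 BRCA1-null A and 2025 of 2078 BRCA1-null B cells.

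**Figure D3:**
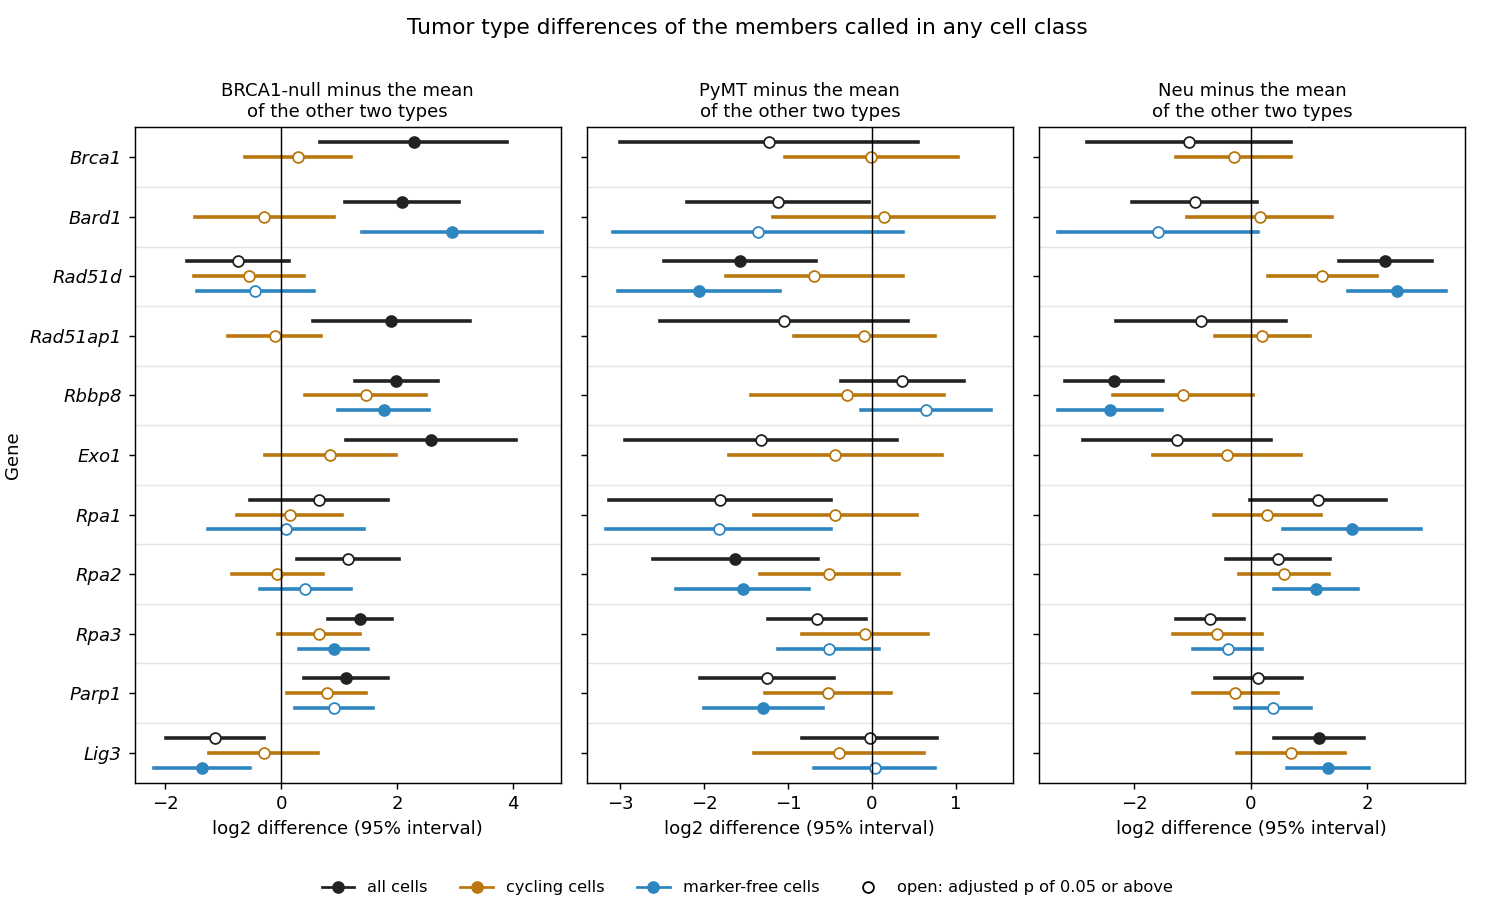
Log2 difference of each tumor type from the mean of the other two, with 95% intervals, for the genes called in all cells or in marker-free cells. Filled points had an adjusted p under 0.05. In cycling cells no point is filled, while for Neu Rad51d, Rbbp8 and Lig3 have filled points both in all cells and in marker-free cells.

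When only cycling cells were summed, the difference between BRCA1-null and the other tumor types was no longer called for any of these genes. Of 33 genes tested 0 passed in any of the 3 comparisons by edgeR, while of all 10642 genes 12.8% were called in the BRCA1-null comparison (8.89% higher, 3.95% lower), 4.28% in that of PyMT (2.38% higher, 1.9% lower) and 8.6% in that of Neu (5.58% higher, 3.02% lower). DESeq2 also called 0, and 4, 1 and 6 genes had an unadjusted p under 0.05. Fibroblast and basal markers still differed there, with 6 and 5 genes higher in BRCA1-null cycling cells and 0 lower, and their part was not tested. The 6 fibroblast markers and the basal markers Krt5, Trp63 and Acta2 were at 0 to 2.45 CPM in PyMT and Neu cycling cells. In BRCA1-null they were at 6.47 to 201 CPM. They passed the filter on low counts through BRCA1-null, so their calls carry no weight. The cycling cells are few, and PyMT A had 26 of them with 425520 UMIs, so that 3 UMIs there correspond to 7.10 CPM. Summed over the 33 genes, levels in cycling cells were 630 and 655 CPM in BRCA1-null, 488 and 590 in PyMT tumors, 857 and 614 in Neu and 670 in 4T1, so the BRCA1-null libraries were not the highest.

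Brca1 in cycling cells was at 14.8 and 9.78 CPM in BRCA1-null (49 and 65 UMIs), 9.47 and 11.1 in PyMT tumors (4 and 42), 10.1 and 8.73 in Neu (9 and 25) and 14.9 in 4T1. The groups overlapped, and the log2 difference was 0.30 (95% interval −0.62 to 1.21). This interval overlaps that of all cells, which also hold the cycling cells, and the change between them was not tested. Bard1 was at 7.55 and 12.8, 21.3 and 8.21, 18.0 and 8.73, and 20.3 CPM, a log2 difference of −0.29 (−1.49 to 0.90) with overlap. Rad51ap1 was at 23.3 and 30.1, 21.3 and 30.4, 40.4 and 23.1, and 16.6 CPM (−0.11, −0.91 to 0.69).
In this class Brca2 was at 5.44 and 11.1 CPM in BRCA1-null, 11.8 and 6.35 in PyMT tumors, 18.0 and 11.2 in Neu and 20.3 in 4T1, and Palb2 at 4.83 and 3.46, 2.37 and 1.59, 2.24 and 3.49, and 3.12 CPM. Neither separated the tumor types. Exo1 (0.84, −0.29 to 1.98) and Rpa3 (0.65, −0.06 to 1.36) had intervals that included 0. Intervals for Rbbp8 (1.46, 0.41 to 2.50, adjusted p = 0.0744) and Parp1 (0.79, 0.10 to 1.47, adjusted p = 0.128) did not.

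Rbbp8 was at 39.6 and 51.1 CPM in cycling BRCA1-null cells, 4.74 and 28.6 in PyMT tumors, 16.8 and 11.2 in Neu and 51.6 in 4T1. BRCA1-null remained above the PyMT and Neu libraries in this gene. Leaving out single libraries gave calls in cycling cells. Without BRCA1-null A, Rbbp8 (1.55, adjusted p = 0.00496) and Parp1 (0.93, 0.0395) were higher in BRCA1-null and Rbbp8 was lower in Neu (−1.37, 0.0196). Without BRCA1-null B, Rbbp8 (1.17, 0.0496) and Dna2 (1.42, 0.0466) were higher and Lig1 (−1.09, 0.0231) was lower in BRCA1-null, and Dna2 was lower in PyMT (−1.72, 0.0455). Of the further homologous recombination genes 2 of 25 were higher in BRCA1-null cycling cells, Mre11a (1.91) and Sfr1 (0.97), and of the replication genes 0 of 30 were called, with a median log2 difference of 0.01.

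The difference between cycling and other cells was itself compared between BRCA1-null and the mean of PyMT and Neu. Of 27 genes tested 3 were lower in BRCA1-null, that is, they had a smaller excess in cycling cells, against 4.61% of all genes called, 3.69% as higher and 0.916% as lower. They were Bard1 (log2 −2.91, 95% interval −4.11 to −1.70, adjusted p = 0.0193), Rad51ap1 (−1.53, −2.39 to −0.66, 0.0481) and Lig1 (−1.12, −1.57 to −0.67, 0.0176). In other cells Bard1 was at 1.34 and 2.25 CPM in BRCA1-null, 0.128 and 0.279 in PyMT tumors, 0.321 and 0.255 in Neu and 3.39 in 4T1, and Rad51ap1 at 2.01 and 1.73, 0.256 and 0.489, 0.964 and 0.764, and 0.424 CPM. In both genes the BRCA1-null libraries lay above all PyMT and Neu libraries. Other cells include cells with some but under 3 mitotic markers, and these were a larger part of them in BRCA1-null. Marker-free cells were 77 of 153 and 1292 of 1803 other cells in BRCA1-null A and B. They were 1761 of 1921 and 1318 of 1719 in PyMT, and 2034 of 2259 and 1550 of 1894 in Neu. Lig1 was at 13.0 and 17.6, 7.87 and 10.0, 11.5 and 13.3, and 33.4 CPM in other cells and at 59.5 and 94.0, 114 and 123, 134 and 123, and 96.7 in cycling cells, where BRCA1-null lay below PyMT and Neu. Bard1 and Rad51ap1 passed the filter on low counts through the cycling cells, so their calls carry no weight as tests. In the same test 10 of 29 replication genes were lower. With marker-free cells in place of other cells, 0 of the 3 kept the call, at −3.14 for Bard1 (0.0928), −0.65 for Rad51ap1 (0.757) and −1.16 for Lig1 (0.0765). The number lower was 5 without BRCA1-null A, 1 without BRCA1-null B, PyMT B or Neu A, and 0 without PyMT A or Neu B.

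In marker-free cells, 22 of the 33 genes had enough UMIs to be tested and 4 were called for BRCA1-null, against 26% of all 13230 genes, 15.7% as higher and 10.3% as lower. Brca1 was not tested there, with 0 and 5 UMIs in BRCA1-null, 0 and 5 in PyMT tumors, 8 and 3 in Neu and 5 in 4T1. A count of 0 allows up to 2.73 CPM in BRCA1-null A and 0.215 CPM in PyMT A. Rbbp8 was at 15.4 and 28.1 CPM in BRCA1-null, 10.6 and 16.3 in PyMT tumors, 3.08 and 3.48 in Neu and 31.7 in 4T1, so that BRCA1-null A lay below PyMT B. It was higher by 1.77 on the log2 scale (95% interval 0.99 to 2.55, adjusted p = 0.00835), and without BRCA1-null B by 1.15 (0.134). Bard1, with 1 and 28 UMIs (0.909 and 1.93 CPM) in BRCA1-null and 2 to 6 UMIs (0.106 to 0.286 CPM) in the PyMT and Neu libraries, is among the 4, but it passed the filter on low counts only through BRCA1-null and its call is given no weight. Rpa3 was higher by 0.91 (0.036) and Lig3 lower by 1.37, a log2 difference of −1.37 (0.0275). Rpa3 and Lig3 lost their calls without BRCA1-null B, PyMT A, PyMT B, Neu A or Neu B (adjusted p up to 0.219 and 0.135). Replication genes were higher in 7 of 28 in these cells.

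In PyMT tumors, 2 genes in all cells were lower and 0 higher than the mean of BRCA1-null and Neu, against 14.2% of all genes called, 7.1% as higher and 7.14% as lower (11 genes had an unadjusted p under 0.05, and DESeq2 called 4 lower and 0 higher). The median log2 difference of the 32 genes was −1.09 against −0.09 for all genes tested, and in both PyMT libraries 14 of the 32 lay below all BRCA1-null and Neu libraries and 0 lay above, against 15.6% below and 15.4% above of all genes tested. Rad51d was at 2.01 and 4.00 CPM in PyMT, 4.67 and 4.28 in BRCA1-null and 19.8 and 16.9 in Neu, a log2 difference of −1.57 (95% interval −2.47 to −0.67, adjusted p = 0.0399). Rpa2 was at 7.24 and 10.5 CPM in PyMT, 44.8 and 19.9 in BRCA1-null, 26.1 and 21.0 in Neu and 20.7 in 4T1 (−1.63, −2.61 to −0.65, 0.0446). The PyMT libraries lay below all BRCA1-null and Neu libraries in both genes. For Rad51d the margin of PyMT B (4.00 CPM) under BRCA1-null B (4.28) was small, and the reference mean includes Neu at 19.8 and 16.9 CPM. Both calls were lost with the replicate block (0.0509 and 0.0602) and without PyMT A (0.255 and 0.299), PyMT B (0.0946 and 0.174), Neu A (0.139 and 0.141) or Neu B (0.108 and 0.108). The number lower was 4 without BRCA1-null A and 6 without BRCA1-null B.

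In marker-free cells, Rad51d (−2.06, adjusted p = 0.016), Rpa2 (−1.54, 0.0223) and Parp1 (−1.29, 0.0267) were lower in PyMT, against 18.4% of all genes called, 8.95% as higher and 9.49% as lower. Parp1 was there at 7.60 and 13.1 CPM in PyMT, 30.0 and 27.8 in BRCA1-null, 23.1 and 22.0 in Neu and 21.5 in 4T1, without overlap. These calls were lost without PyMT A or PyMT B and, other than for Rad51d without Neu B, without Neu A or Neu B (adjusted p up to 0.226). Among further repair genes in all cells, Ung (−2.43) and Xrcc5 (−1.62), a subunit of the Ku complex, were lower in PyMT and Faap100 (2.45) was higher. The counts were 0 of 28 for homologous recombination, 1 higher and 2 lower of 14 for the Fanconi list, 0 and 1 of 18 for checkpoint, 0 and 1 of 12 for end joining, 1 and 2 of 27 for excision and mismatch repair and 0 and 3 of 30 for replication.

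For Neu tumors, set against the mean of BRCA1-null and PyMT in all cells, 2 genes passed as higher and 1 as lower, against 23.4% of all genes called, 14.1% higher and 9.33% lower. The median log2 difference was 0.09 against −0.01 for all genes. In both Neu libraries 4 of the 32 lay above all other libraries of the 3 types and 1 below, against 22.8% and 16.8% of all genes tested. Rad51d was at 19.8 and 16.9 CPM in Neu, 4.67 and 4.28 in BRCA1-null tumors, 2.01 and 4.00 in PyMT and 4.55 in 4T1. The 2 Neu libraries stood far above the other 5, a 4.97-fold difference from BRCA1-null and PyMT (log2 2.31, 95% interval 1.51 to 3.11, adjusted p = 0.00593). Lig3 was at 37.7 and 40.2 CPM in Neu, 18.5 and 8.63 in BRCA1-null tumors, 21.1 and 23.7 in PyMT and 13.3 in 4T1, again without overlap (2.25-fold, adjusted p = 0.0432). Rbbp8, at 3.92 and 4.23 CPM, was 5.09-fold lower (log2 −2.35, −3.19 to −1.50, adjusted p = 0.00663). Rad51d lost its call without Neu A (0.0644) or Neu B (0.0503), as did Rbbp8 (0.0791 and 0.0705), and Lig3 without PyMT A (0.143), PyMT B (0.121), Neu A (0.197) or Neu B (0.216) and with DESeq2 size factors (0.0524).

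The Neu differences were also measured in marker-free cells, which can still hold replicating cells and cycling cells whose markers were missed. There Rad51d was at 20.1 and 16.9 CPM in Neu, 7.27 and 3.66 in BRCA1-null tumors, 1.65 and 2.76 in PyMT and 4.04 in 4T1 (log2 2.51, adjusted p = 0.00341), a call that held in all 15 other settings with adjusted p up to 0.0411. Lig3 was at 38.6 and 40.6, 17.3 and 8.15, 21.3 and 22.2, and 13.5 CPM in the same order (1.33, 0.0164). Rbbp8 was again lower (−2.41, 0.00489). Rpa1 (1.75, 0.0385) and Rpa2 (1.12, 0.0316) were also higher, against 29.3% of all genes called, 17.1% as higher and 12.3% as lower. The calls of Lig3, Rpa1 and Rpa2 were lost without PyMT A, PyMT B, Neu A or Neu B, that of Rpa2 also without BRCA1-null B, and that of Rbbp8 without Neu A or Neu B (adjusted p up to 0.110, 0.234, 0.202 and 0.0612).
In cycling cells Rad51d was at 14.6 and 14.3 CPM in Neu, 6.34 and 6.32 in BRCA1-null tumors, 4.74 and 6.35 in PyMT and 4.68 in 4T1, so Neu remained above the rest, by 1.23 on the log2 scale (0.30 to 2.17), without passing the test (adjusted p = 0.102). Lig3 in cycling cells overlapped between types, at 19.1 and 32.1 CPM in Neu, 22.4 and 11.1 in BRCA1-null tumors and 14.2 and 16.7 in PyMT (0.70, −0.24 to 1.63).

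Rad51d and Lig3 are neighbours on chromosome 11, 72160 bases apart, which also holds Brca1, Rad51c, Rad50, Brip1 and Rpa1. Of 26 other genes tested within 1 Mb of them, 3 were higher and 4 lower in Neu tumors, with a median log2 difference of −0.32, and of 1141 other genes of the chromosome 148 were higher and 132 lower. Lig3 overlaps Rffl on the opposite strand, and no member overlaps another counted gene on its own strand. Of the further repair genes 2 of 12 for end joining were higher in Neu (Poll 1.87 and Paxx 1.30). The counts were 0 higher and 1 lower of 28 for homologous recombination, 1 and 1 of 14 for the Fanconi list, 0 and 1 of 18 for checkpoint, 1 and 0 of 27 for excision and mismatch repair and 0 and 1 of 30 for replication.

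**Figure D4:**
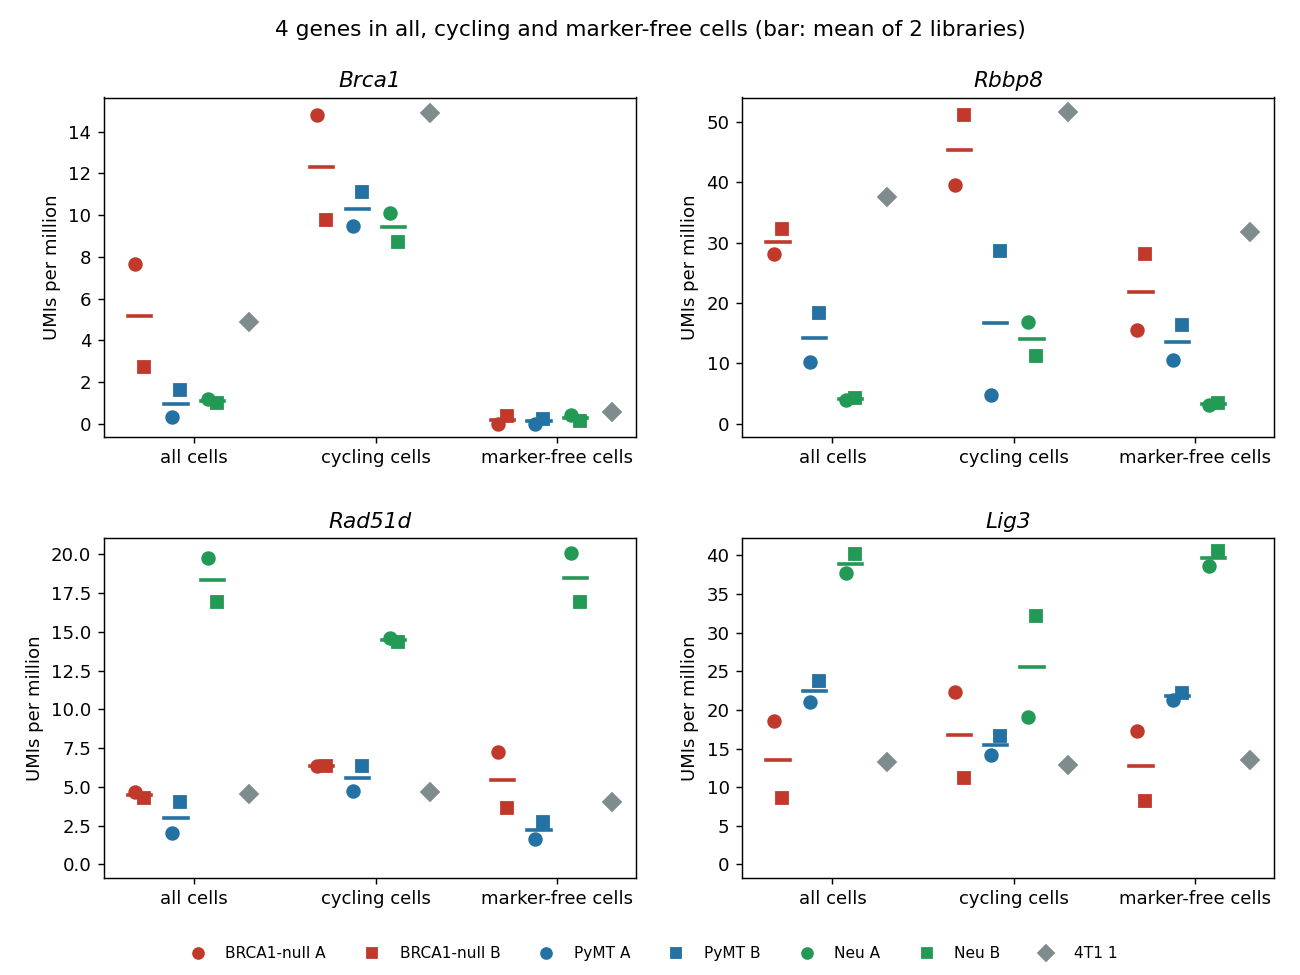
Levels in CPM of Brca1, Rbbp8, Rad51d and Lig3 in all, cycling and marker-free cells, 1 point per library and a bar for the mean of the 2 libraries of a type. Brca1 separates BRCA1-null in all cells and not in cycling cells, where it was 14.8 and 9.78 CPM against 8.73 to 11.1, whereas Rad51d of both Neu libraries lies above the other libraries in each class.

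The remaining genes were given no call between tumor types in all cells. Rad51c, Xrcc2, Xrcc3, Fancd2, Fanci and Polq were low throughout, at 0 to 3.96 CPM, with Fancd2 at 0 UMIs in PyMT A, where 3 UMIs would be 0.189 CPM. Rpa1 (37.9 and 10.3 CPM in BRCA1-null, 6.67 and 8.57 in PyMT tumors, 36.0 and 24.3 in Neu) and Dna2 (7.36 and 0.584 in BRCA1-null) lay far apart in the 2 BRCA1-null libraries. Without BRCA1-null B, Dna2 (log2 3.63, adjusted p = 0.00669), Rpa1 (1.24, 0.0248), Rpa2 (1.55, 0.0104), Rad54l (2.25, 0.0153), Palb2 (2.30, 0.0455) and Xrcc2 (2.71, 0.018) were higher in BRCA1-null, and without BRCA1-null A Lig3 was lower (−1.77, 0.00673). Trp53bp1 lay at 5.52 to 10.1 CPM, Xrcc1 at 11.3 to 21.2 and Atr at 4.23 to 12.3 in all 7 libraries. The 4T1 library, given as values with no test, had the highest level of the 7 for Brca2, Bard1, Chek1, Rbbp8, Rad50, Lig1 and Atr, among others, while its Lig3 lay between those of BRCA1-null A and B.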

How the data were processed

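The authors deposited raw UMI counts per gene and barcode for each library, made with Cell Ranger 2.2.0 (replicates A and 4T1) or 3.0.2 (replicates B) on mm10 according to the submitters' processing notes. The header of every matrix names 3.0.2. A combined matrix repeats the same cells and was not used. UMIs were summed per library and cell class, and sums were tested with edgeR 4.0.16 (limma 3.58.1, R 4.3.3) by quasi-likelihood with filterByExpr, TMM factors over 7 libraries and Benjamini-Hochberg adjustment over all genes tested. Tumor type fits had 3 residual degrees of freedom and fits of cell classes 6, with 3 for the difference between tumor types of these classes.

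The 33 genes, the lists and the tests were chosen with earlier results of these data known. Values in every library are given for Brca1, Brca2, Palb2 and Bard1, for genes called between tumor types and for 12 with the smallest adjusted p between cell classes. Other lists are given by counts and up to 3 genes each. Bre, Fam175a, Hrob, Shld1 and Shld2 were not matched as spelled. Doublets (scanpy 1.11.5, Scrublet) were kept, 61 cells (0.501%), 15 of them cycling. Alternatives were DESeq2 1.42.0, its size factors in edgeR, TMM over 6 libraries, no filter on low counts, the cell filter of the study, a 10% mitochondrial limit, doublets removed, cells with an epithelial marker, other marker numbers, cells thinned to 3000 UMIs, a replicate block and each library left out. The letters A and B are sequencing batches by the study's methods. Over 13950 genes, differences between B and A correlated at 0.0728 for BRCA1-null with PyMT, 0.121 for BRCA1-null with Neu and 0.164 for Neu with PyMT, and the block left 2 residual degrees of freedom. The scripts were tested on simulated data. Promoters are from a RefSeq table of GRCm38.p6. Gene positions, overlaps and neighbours are from a GENCODE annotation.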

Additional observations from a re-analysis of the deposited data

Results flagged for a closer look

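For 3 genes the excess in cycling over other cells was called as different between BRCA1-null tumors and the mean of PyMT and Neu tumors. Bard1 and Rad51ap1 passed the filter on low counts through the cycling cells, so their calls carry no weight as tests. The calls of Bard1, Rad51ap1 and Lig1 were lost in 5, 7 and 5 of 9 other settings. The log2 values were −2.91 for Bard1, −1.53 for Rad51ap1 and −1.12 for Lig1, each lower in BRCA1-null. With marker-free cells as the reference the values were −3.14 for Bard1 (adjusted p = 0.0928), −0.65 for Rad51ap1 (0.757) and −1.16 for Lig1 (0.0765). Over all 9 other settings Bard1 lay between −3.71 and −2.55, Rad51ap1 between −2.30 and −0.65 and Lig1 between −1.58 and −0.71.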

How the results depend on the processing

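Of the results for single genes under other settings, 4758 kept their direction and side of the threshold, 121 lost a call, 59 gained one and 0 reversed. In all cells, BRCA1-null had 7 genes higher and 0 lower, which became 12 and 1 with DESeq2, 12 and 1 with no filter on low counts, and 2 to 11 and 0 to 1 with a library left out. PyMT had 2 lower, which became 4 with DESeq2, 5 with no filter, 0 with the replicate block and 0 to 6 with a library left out. Neu had 2 higher and 1 lower, which became 1 higher with DESeq2 size factors, 2 lower with DESeq2, and 0 to 3 and 0 to 1 with a library left out. In cycling cells, where 0 were called, leaving out a library gave 0 to 2 higher and 0 to 1 lower for BRCA1-null, 0 to 1 lower for PyMT and 0 to 1 lower for Neu. In marker-free cells, the ranges with a library left out, run after seeing the data, were 0 to 3 higher and 0 to 1 lower for BRCA1-null, 0 to 4 lower for PyMT, and 1 to 4 higher and 0 to 1 lower for Neu. Between cycling and other cells the 1 gene lower (Lig3) became 0 with DESeq2, 0 with at least 2 of 8 markers, 0 with marker-free cells as the reference, chosen after seeing the data, and 0 to 1 with a library left out. The 1 gene higher in replication-marker cells became 0 with DESeq2 and 0 to 1 with a library left out. The 3 genes lower in the difference between tumor types became 0 with the marker-free reference, 1 with at least 2 of 8 markers and 0 to 5 with a library left out. The cause of these changes was not tested. The replicate block, which pairs tumors of the same letter, also ended the calls of Brca1 (2.28, adjusted p = 0.0783) and Rad51ap1 (2.03, 0.0541) in BRCA1-null and gave one for Rpa1 in marker-free PyMT cells (−1.71, 0.0413). Depth limits the low genes most, with 3 UMIs at 7.10 CPM in cycling cells of PyMT A, 3.37 in Neu A and 0.451 to 1.05 in the other libraries. Leaving out a library leaves a type with 1 tumor, which is assumed to vary like the others.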
